A study of Homo sapiens with 6 samples.

Results

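MCM10, CDC6, CDC25A, CCNE1, FEN1, DBF4 and E2F7 act around the passage of cells from G1 into S phase and at the start of DNA replication. They were chosen by gene symbol, as proposed from their values on these same 6 arrays across temperature and radiation. Their own differences are therefore descriptions without a test. All 7 were found, each with 1 feature, among 14884 named genes on arrays of 53617 features.

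The cells were A549, an established human lung adenocarcinoma line, and all of them first grew for 24 h at 37 °C. The arrays form 6 groups of 1 array each. Of the groups with heat and radiation, 1 spent 1 h at 44 °C and 1 spent 1 h at 41.5 °C, both followed at once by 3 Gy of X-rays, with the time to harvest not stated. Heat alone was 1 h at 44 °C or at 41.5 °C with 3 h back at 37 °C, radiation alone was 3 Gy with 3 h at 37 °C, and the last group was the untreated control, for which no further time is given. No source used here names separate cultures, so p-values reflect only how far these arrays scatter, and that scatter may be technical. With 1 array per group, it also holds any change of the radiation effect with temperature, which cannot be told apart from noise. Values are log2 RMA levels, and levels of different genes cannot be set against each other. Of the epithelial markers, 4 of 7 were measured: KRT18 had levels between 11.43 and 11.59 over the arrays, KRT8 between 6.28 and 6.83, EPCAM between 5.92 and 6.47 and KRT19 between 4.33 and 4.54. Of the leukocyte, endothelial and fibroblast markers, 6 of 15 were measured, and their levels lay between 1.72 for DCN and 5.81 for CD14. HSPA1A, a heat-induced HSP70 gene with the near-identical copy HSPA1B, had levels of 10.11, 12.08 and 12.74 with 3 Gy at 37, 41.5 and 44 °C, and of 10.38, 12.02 and 12.71 without radiation. HSPH1, another heat shock gene, lay between 9.53 and 11.17.

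In G1, the origin recognition complex, CDC6 and CDT1 load the MCM helicase onto origins. Cyclin E (CCNE1) with CDK2, which the phosphatase CDC25A activates, and the kinase CDC7 with its activator DBF4 then convert the loaded helicase into working forks, a step for which MCM10 is needed. FEN1 trims the flaps of Okazaki fragments behind the fork. Many of these genes are targets of the E2F factors, of which E2F7 is an atypical member that represses transcription, and after DNA damage cells hold back this transition through p53 and the destruction of CDC25A.

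Promoter windows are shown for the genes that hold an E2F word near their start, and for DBF4, whose radiation values are among the largest below. They run from 250 bases before to 50 bases after the RefSeq start (GRCh38.p14), on the gene's strand. Capitals mark the E2F words TTTCCCGC, TTTGGCGC, TTTCGCGC or TTTGCCGC and the shorter TTTGGCG or TTTCCCG, which lie within some of the longer ones. In DBF4 they mark the CHR word (TTTGAA or TTCGAA), here on the opposite strand. The shorter words were added after the sequences were seen. E2F7, whose radiation values are about as large as those of DBF4, holds none of these E2F or CHR words, and its window is not shown.
CDC6, chr17:40287629-40287928, plus strand: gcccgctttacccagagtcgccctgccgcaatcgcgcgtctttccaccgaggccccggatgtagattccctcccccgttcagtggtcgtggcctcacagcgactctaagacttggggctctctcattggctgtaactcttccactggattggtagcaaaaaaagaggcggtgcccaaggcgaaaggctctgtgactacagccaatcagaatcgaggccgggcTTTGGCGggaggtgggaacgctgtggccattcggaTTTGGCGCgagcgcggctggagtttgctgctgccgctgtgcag
CDC25A, chr3:48188368-48188667, minus strand: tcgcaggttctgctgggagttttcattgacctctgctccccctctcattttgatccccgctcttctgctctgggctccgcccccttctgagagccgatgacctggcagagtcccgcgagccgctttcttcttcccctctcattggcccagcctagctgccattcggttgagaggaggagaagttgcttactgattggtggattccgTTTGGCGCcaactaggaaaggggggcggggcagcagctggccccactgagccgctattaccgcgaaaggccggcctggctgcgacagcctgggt
MCM10, chr10:13161308-13161607, plus strand: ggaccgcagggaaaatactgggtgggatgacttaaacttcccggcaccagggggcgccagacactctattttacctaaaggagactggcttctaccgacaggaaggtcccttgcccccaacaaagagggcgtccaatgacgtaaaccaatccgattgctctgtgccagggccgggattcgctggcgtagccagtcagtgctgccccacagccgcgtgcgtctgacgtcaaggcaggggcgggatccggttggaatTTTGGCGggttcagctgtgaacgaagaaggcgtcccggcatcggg
DBF4, chr7:87876243-87876542, plus strand: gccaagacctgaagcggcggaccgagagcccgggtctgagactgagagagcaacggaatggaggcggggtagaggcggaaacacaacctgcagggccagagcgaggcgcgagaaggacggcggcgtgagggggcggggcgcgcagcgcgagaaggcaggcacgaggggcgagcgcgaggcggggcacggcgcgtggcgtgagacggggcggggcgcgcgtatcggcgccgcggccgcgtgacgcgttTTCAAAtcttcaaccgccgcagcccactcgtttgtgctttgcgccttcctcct

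Searched on both strands, the longer E2F words were found in 2 of the 7 windows (CDC6 and CDC25A). They lay in 3.31% of all 35116 promoter windows and in 4.11% of the windows of the 14884 measured genes. The shorter ones were found in 3 of 7, with 2 matches in CDC6, in 6.06% of all windows and in 7.3% of those of measured genes. A CCAAT word lay in 4 of 7 (MCM10, CDC6, CDC25A and E2F7), against 34.6% of all windows and 34.3% of those of measured genes. A CHR word lay only in DBF4 of the 7, against 16.4% and 13.5%. The heat shock element, as 3 alternating blocks of GAA and its reverse complement, was found in 0 of 7. Its shares were 0.49% of all windows and 0.443% of those of measured genes. These matches are descriptions of the letters in the windows.

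The 7 genes did not share a single pattern. CCNE1 was high at 44 °C, CDC25A at 41.5 °C and CDC6 at both temperatures. MCM10 and FEN1 were low at 44 °C, and DBF4 and E2F7 had the largest radiation differences of the 7 at 37 and 41.5 °C. At 44 °C these were 0.21 and 0.11, and the differences of DBF4 between temperatures took opposite signs with and without radiation. Across the 6 arrays each gene ranged from 1.53-fold (CDC6) to 1.92-fold (DBF4 and E2F7), where the median range of all genes was 0.43 on the log2 scale and these 7 lay between 0.61 and 0.94.

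**Figure D1:**
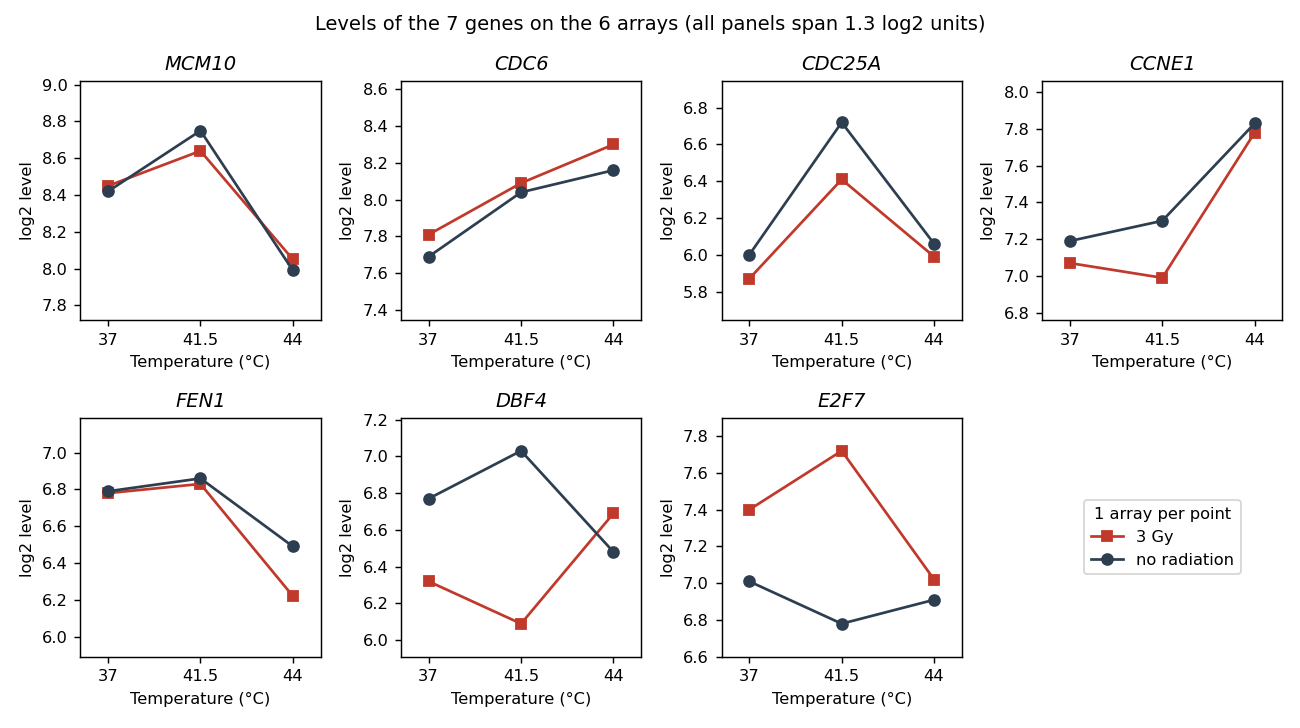
Log2 level (vertical axis) of each of the 7 genes against temperature in °C, with squares for arrays with 3 Gy and circles for arrays without radiation; each point is 1 array and all panels span the same log2 distance. The 2 lines run close together for MCM10 and CDC6 and, except at 44 °C, for FEN1. They lie apart at 37 and 41.5 °C for DBF4 and E2F7.

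CCNE1 encodes cyclin E1, the partner of CDK2 at the G1/S boundary. At 37, 41.5 and 44 °C its log2 levels were 7.07, 6.99 and 7.78 with 3 Gy and 7.19, 7.30 and 7.83 without radiation. Both 44 °C arrays stood above all 4 others, and they lay 0.05 apart. The gene's residual SD in the additive model, which is made from such pairs of arrays, was 0.095. The model gave a difference of 0.67 ± 0.10 (SE, 2 arrays at each temperature) for 44 °C against 37 °C, or 1.59-fold, and 0.66 ± 0.10 for 44 °C against 41.5 °C. For 41.5 °C against 37 °C it was 0.02 ± 0.10. In bulk RNA, fewer cells in a cell cycle stage and less RNA per cell cannot be told apart, which holds for every level given here.

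CDC25A encodes the phosphatase that removes the inhibitory phosphates of CDK2. Its log2 levels at 37, 41.5 and 44 °C were 5.87, 6.41 and 5.99 with 3 Gy and 6.0, 6.72 and 6.06 without radiation. The 41.5 °C arrays were the 2 highest, and the 44 °C arrays overlapped those at 37 °C, 1 lying between them and 1 just above both. The difference of 41.5 °C from 37 °C was 0.63 ± 0.11, or 1.55-fold, that of 44 °C from 37 °C was 0.09 ± 0.11, and that of 44 °C from 41.5 °C was -0.54 ± 0.11. With radiation its level was lower at each temperature, by 0.13 at 37 °C, 0.31 at 41.5 °C and 0.07 at 44 °C.

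CDC6 encodes the ATPase that loads the MCM helicase onto origins. At 37, 41.5 and 44 °C its log2 levels were 7.81, 8.09 and 8.30 with 3 Gy and 7.69, 8.04 and 8.16 without radiation. The order of the 6 arrays followed temperature, with the irradiated array the higher of each pair. The difference was 0.48 ± 0.08 for 44 °C against 37 °C, 0.31 ± 0.08 for 41.5 °C against 37 °C and 0.16 ± 0.08 for 44 °C against 41.5 °C.

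MCM10, a factor that activates the loaded helicase, had log2 levels of 8.45, 8.64 and 8.05 with 3 Gy at 37, 41.5 and 44 °C, and of 8.42, 8.75 and 7.99 without radiation. The 44 °C arrays were the lowest and the 41.5 °C arrays the highest, with no overlap between temperatures. The control and the irradiated array were 0.03 apart and the 44 °C arrays 0.06 apart. The gene's residual SD, made from such pairs, was 0.065. The difference was -0.41 ± 0.08 for 44 °C against 37 °C and -0.67 ± 0.08 for 44 °C against 41.5 °C, which is 1.59-fold lower. For 41.5 °C against 37 °C it was 0.26 ± 0.08.

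FEN1, the flap endonuclease of Okazaki fragment processing, had log2 levels of 6.78, 6.83 and 6.22 with 3 Gy at 37, 41.5 and 44 °C, and of 6.79, 6.86 and 6.49 without radiation. Both 44 °C arrays were below the other 4, which lay between 6.78 and 6.86. The residual SD was 0.106. The difference of 44 °C from 37 °C was -0.43 ± 0.11 and that from 41.5 °C was -0.49 ± 0.11. Against the same radiation state at 37 °C, the 44 °C array was 1.47-fold lower with 3 Gy and 1.23-fold lower without. The mean absolute distance between the profiles of MCM10 and FEN1, each centred on its own mean over the 6 arrays, was 0.12, the smallest of the 21 pairs of these genes, and the largest was 0.54, for MCM10 and CCNE1.

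DBF4, the activating subunit of the CDC7 kinase, had log2 levels of 6.32, 6.09 and 6.69 with 3 Gy at 37, 41.5 and 44 °C, and of 6.77, 7.03 and 6.48 without radiation. The irradiated array was the lower at 37 °C, by 0.45, and at 41.5 °C, by 0.94, or 1.92-fold. At 44 °C it was the higher, by 0.21. The additive model, which takes 1 radiation effect for all temperatures, gave -0.39 ± 0.17 (SE, 3 arrays with and 3 without radiation) and left a residual SD of 0.406, against a median of 0.113 over all genes. Its temperature estimates were all within 0.04 of 0 with an SE of 0.21, since the arrays with and without radiation lay on opposite sides. Without the combined 44 °C array the difference of 44 °C from 37 °C was -0.41, and without the array of 44 °C alone it was 0.49.

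E2F7, an atypical E2F repressor and, as background, a target of p53, had log2 levels of 7.40, 7.72 and 7.02 with 3 Gy at 37, 41.5 and 44 °C, and of 7.01, 6.78 and 6.91 without radiation. The irradiated array was the higher by 0.38 at 37 °C, by 0.94 at 41.5 °C and by 0.11 at 44 °C. The highest and the lowest of all 6 levels were those of the 41.5 °C arrays with and without radiation. The model gave 0.48 ± 0.13 for radiation, with a residual SD of 0.299. SESN1, a p53 target named after its values were seen, had levels of 7.08, 7.14 and 5.45 with 3 Gy at 37, 41.5 and 44 °C, and of 5.73, 5.64 and 5.45 without. The check genes CDKN1A and MDM2 are unnamed in the annotation. The part of p53 in the E2F7 values was not tested.

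**Figure D2:**
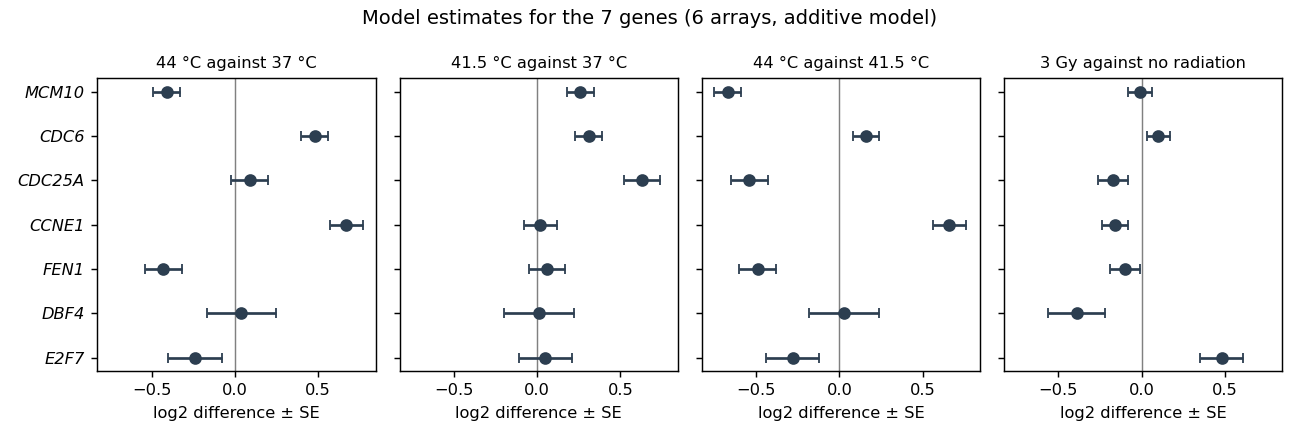
Log2 difference (horizontal axis) of the 7 genes in 4 comparisons from the additive model over 6 arrays, with points for estimates and bars for ± 1 SE. CCNE1 lies right of 0 and MCM10 and FEN1 left of 0 in both comparisons of 44 °C, while DBF4 and E2F7 lie on opposite sides for radiation and have the widest bars.

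By the rule used for all genes (limma, adjusted p under 0.05), 4 of the 7 would be called at 44 °C against 37 °C (CDC6 and CCNE1 higher, MCM10 and FEN1 lower), where 6.11% of all genes were called. At 41.5 °C against 37 °C it was 1 of 7 (CDC25A, higher) beside 3.29%, and at 44 °C against 41.5 °C 4 of 7 (CCNE1 higher, MCM10, CDC25A and FEN1 lower) beside 12.1%. For radiation it was 0 of 7 beside 0.0% of all genes. Since the genes were chosen on these values, nothing is read from these counts. The pairs of arrays did not overlap between 44 °C and 37 °C for 4 of 7 and for 51.0% of all genes, between 41.5 °C and 37 °C for 4 of 7 and 46.2%, and between 44 °C and 41.5 °C for 5 of 7 and 54.1%.

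The rest of the pathway was taken from 5 lists of 101 further genes, of which 55 were measured under these symbols. In the comparison of 44 °C with 37 °C, 5 of the 55 fell and 0 rose, where 2.54% of all genes fell and 3.57% rose (378 and 532 genes, against 596 and 485 after a further quantile normalization and 538 and 467 after median centring). They were MCM3 and MCM6, subunits of the MCM helicase, DNA2, a nuclease that works beside FEN1 on long flaps, DSCC1, a subunit of an alternative clamp loader, and CTPS1, which makes CTP. The median over the 55 was -0.11 and over all genes -0.04. Negative values were found in 42 of the 55 and in 8597 of all 14884 genes.

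CTPS1 had log2 levels of 8.76 and 8.81 at 44 °C with and without radiation, against 9.26 and 9.28 at 37 °C. It fell by 0.49 ± 0.07 (SE, limma adjusted p = 0.00282). DSCC1 had 5.98 and 5.92 at 44 °C, against 6.30 and 6.46 at 37 °C, and fell by 0.43 (adjusted p = 0.0482). DNA2 had 7.07 and 6.96, against 7.40 and 7.47, and fell by 0.42 (adjusted p = 0.0418). MCM3 had 8.40 and 8.41, against 8.67 and 8.76, and fell by 0.31 (adjusted p = 0.0379), and MCM6 had 8.23 and 8.27, against 8.53 and 8.59, and fell by 0.30 (adjusted p = 0.0473). In all of these the 44 °C arrays lay below both 37 °C arrays. As the genes were picked by their calls, and the pairs did not overlap for 51.0% of all genes, nothing is read from this.

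Each of these calls was lost without the control and without the irradiated array, while all differences stayed below 0. Either of these fits had 1 array left at 37 °C. The calls of DSCC1, DNA2, MCM3 and MCM6 were also lost without the array of 44 °C alone, which left 1 array at 44 °C. Those of MCM3 and MCM6 were lost without the combined 44 °C array too. Over the 6 fits that each leave out 1 array, adjusted p reached 0.0881 for CTPS1, with differences from -0.52 to -0.46, and 0.312 for DNA2, with -0.55 to -0.29. It reached 0.378 for DSCC1 (-0.54 to -0.32), 0.347 for MCM3 (-0.35 to -0.27) and 0.296 for MCM6 (-0.34 to -0.27).

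By list, the 22 measured genes of origin licensing and firing, of 30 listed, had 2 falls and a median of -0.14. Only 4 of 29 listed fork genes were measured, with 2 falls and a median of -0.42, which leaves most fork genes out. The 6 measured genes of nucleotide supply, of 8 listed, had 1 fall and a median of -0.16. The 9 measured cyclin and kinase genes, of 17 listed, had a median of 0.06. The 14 measured E2F, RB and DREAM genes, of 17 listed, had one of -0.12. Both lists had 0 calls and 0 genes at an unadjusted p under 0.05. Of the other MCM subunits, MCM5 had a difference of -0.25, MCM2 of -0.19, MCM4 of -0.15 and MCM7 of 0.03, with adjusted p between 0.127 and 0.874. PCNA, the sliding clamp to which FEN1 binds, had a difference of -0.41 (adjusted p = 0.0573). CCNE2, the other cyclin E gene, had one of 0.06 ± 0.13, and CDC25B, a relative of CDC25A outside the lists, one of -0.06 ± 0.08. The difference between CCNE1 and CCNE2 was not tested.

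In the comparison of 41.5 °C with 37 °C, 3 of the 55 rose and 0 fell, where 2.18% of all genes rose and 1.1% fell. CCND1, the cyclin D1 gene of early G1, had log2 levels of 8.93 and 8.85 at 41.5 °C with and without radiation, against 8.20 and 8.36 at 37 °C, and rose by 0.61 ± 0.08 (adjusted p = 0.0052). CDK6, a kinase that cyclin D activates, had 7.99 and 8.03 against 7.28 and 7.64 and rose by 0.55 ± 0.11 (adjusted p = 0.0261). CTPS1 had 9.61 and 9.56 against 9.26 and 9.28 and rose by 0.32 ± 0.07 (adjusted p = 0.0438). In all 3 genes both 41.5 °C arrays lay above both 37 °C arrays. They too were picked by their calls, and the pairs did not overlap for 46.2% of all genes, so nothing is read from this. The call of CTPS1 was lost after a further quantile normalization (adjusted p = 0.0804) and after median centring (adjusted p = 0.0526). The median over the 55 was 0.0.

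Without the control or the irradiated array, 37 °C had 1 array left, and the calls of CCND1, CDK6 and CTPS1 at 41.5 °C were lost. Adjusted p then reached 0.212 for CCND1, 0.369 for CDK6 and 0.363 for CTPS1, and the difference of CDK6 was 0.35 without the irradiated array. Without the combined 41.5 °C array 1 was called, CDK6 having an adjusted p of 0.122 and CTPS1 of 0.223, and without the array of 41.5 °C alone CTPS1 had one of 0.068. Without the intensity trend in the model 0 of the 55 were called here, with 7 at an unadjusted p under 0.05, and 0 with 9 at 44 °C against 37 °C. Of all 14884 genes 9 and 405 were then called, and 2151 and 2651 had an unadjusted p under 0.05.

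Between 44 °C and 41.5 °C, 8 of the 55 were lower at the higher temperature and 0 higher, where 7.23% of all genes were lower and 4.9% higher. CTPS1 fell by 0.80 ± 0.07 (adjusted p = 1.0e-04), CCND1 by 0.52 ± 0.08 (adjusted p = 0.00334), DSCC1 by 0.52 ± 0.11 (adjusted p = 0.0125) and CDK6 by 0.49 ± 0.11 (adjusted p = 0.0182). RBL1, the pocket protein p107, fell by 0.39 ± 0.09 (adjusted p = 0.0151), PCNA by 0.39 ± 0.11 (adjusted p = 0.0479), MCM6 by 0.32 ± 0.08 (adjusted p = 0.0235) and MCM3 by 0.28 ± 0.08 (adjusted p = 0.0399). The median of the 55 was -0.12, and that of all genes -0.02. Of the 17 measured G2/M genes 3 rose in the same comparison (AURKB, PTTG1 and HMMR) and 0 fell, with a median of 0.28. Between single arrays the G2/M median was 0.53 with 3 Gy, all 17 genes being above 0, and -0.07 without radiation, 9 of 17 being below 0. Among all 14884 genes 6866 were above 0 with 3 Gy, and 7928 were below 0 without radiation. AURKB and HMMR kept their call in 2 of the 6 fits that each leave out 1 array, and AURKB lost it after median centring (adjusted p = 0.0758). The difference of HMMR was 0.73, but 0.29 and 0.31 without the combined 44 °C or the combined 41.5 °C array and 1.17 and 1.15 without the array of 44 °C alone or that of 41.5 °C alone. That of AURKB was 0.36, and 0.21 without the combined 44 °C array. PTTG1 lost its call without the combined 41.5 °C array (adjusted p = 0.0689). Of the 6 markers of other cell types CD14 rose by 0.77 (adjusted p = 0.00362), and the epithelial marker EPCAM rose by 0.45 (adjusted p = 0.0249). CD14 kept its call in all 6 fits that leave out 1 array and EPCAM in 1 of 6, with adjusted p up to 0.187. Without the intensity trend EPCAM had an adjusted p of 0.0757, and in the fit of all features one of 0.0946. Their part in the values of the 55 genes was not tested. CTPS1 and CCND1 kept their call when any 1 array was left out. MCM3 and MCM6 lost it without each array in turn, with adjusted p up to 0.199 and 0.141. CDK6 lost it without the array of 44 °C alone (0.154) or the combined 41.5 °C array (0.0908), DSCC1 (up to 0.1) and RBL1 (up to 0.121) without the array of 44 °C alone or that of 41.5 °C alone, and PCNA without the control, the irradiated array or either combined array (up to 0.482) and after a further quantile normalization (0.0531). The difference of PCNA was -0.15 without the combined 44 °C array and -0.63 without the array of 44 °C alone. The number called was 4 without the array of 44 °C alone or that of 41.5 °C alone, and 5 without the control, the irradiated or the combined 41.5 °C array.

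**Figure D3:**
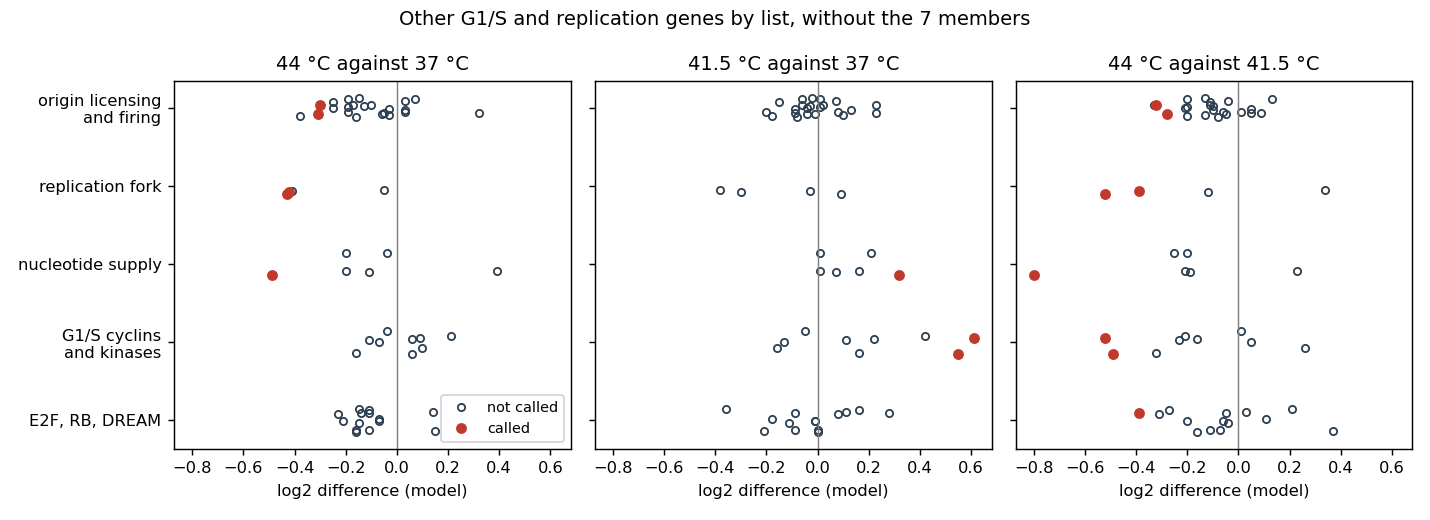
Model log2 difference (horizontal axis) of the 55 other genes in 5 lists (vertical axis) for 3 comparisons of temperature; each circle is 1 gene, filled where the adjusted p was under 0.05 and open otherwise. All filled circles lie left of 0 in both comparisons of 44 °C and right of 0 at 41.5 °C against 37 °C.

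For 3 Gy against no radiation over all temperatures, 0 of the 55 genes were called in limma, 4 had an unadjusted p under 0.05, all with negative values, and the median was -0.04. Over all 14884 genes 0 were called and 733 had an unadjusted p under 0.05, 350 of them with negative values. In the 4 arrays at 37 and 41.5 °C alone, 0.585% of all genes were called, and 1 of the 55 was among them. This was TICRR, which helps to load CDC45 onto the helicase when origins fire. It had log2 levels of 7.60 and 7.46 with 3 Gy at 37 and 41.5 °C, against 8.06 and 8.01 without, and fell by 0.50 ± 0.09 (SE, 2 arrays with and 2 without radiation, adjusted p = 0.0183). At 44 °C its level was 7.94 with 3 Gy and 7.62 without. In the same 4 arrays DBF4 had a difference of -0.69 ± 0.12 and E2F7 of 0.66 ± 0.12, given without a test. In the model over all temperatures, leaving out either of the 41.5 °C arrays, the radiation difference of DBF4 was -0.12 and that of E2F7 0.25.

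The values of DBF4 stood beside those of the G2/M genes, a list of genes that act later in the cycle. Their median radiation difference between single arrays was -0.27 at 37 °C, -0.58 at 41.5 °C and -0.02 at 44 °C over 17 genes, all 17 being below 0 at 37 and 41.5 °C. At these temperatures 7514 and 7492 of all 14884 genes were below 0. For the 55 G1/S and replication genes the medians were -0.06, -0.04 and 0.0. In the 4 arrays at 37 and 41.5 °C, 37 of these 55 were below 0, beside 7546 of all 14884 genes. The lowest were TICRR (-0.50), CCNA2 (-0.46), DBF4B (-0.41) and E2F8 (-0.31) and the highest PCNA (0.34), named after their values were seen. Of these 5 only TICRR was called. In the 4 arrays 46 of all 14884 genes fell, and 7 of the 17 G2/M genes were among them. These 7 included PLK1 (-0.70), HMMR (-0.76) and CCNB1 (-0.65), named after their values were seen. The part of these genes in the DBF4 values was not tested. Differences of at least 0.322 on the log2 scale between these single arrays were counted in 2 of the 7 genes at 37 °C (DBF4 lower, E2F7 higher), where 14.4% of all genes passed, in the same 2 at 41.5 °C, where 15.2% passed, and in 0 at 44 °C, where 11.6% passed.

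**Figure D4:**
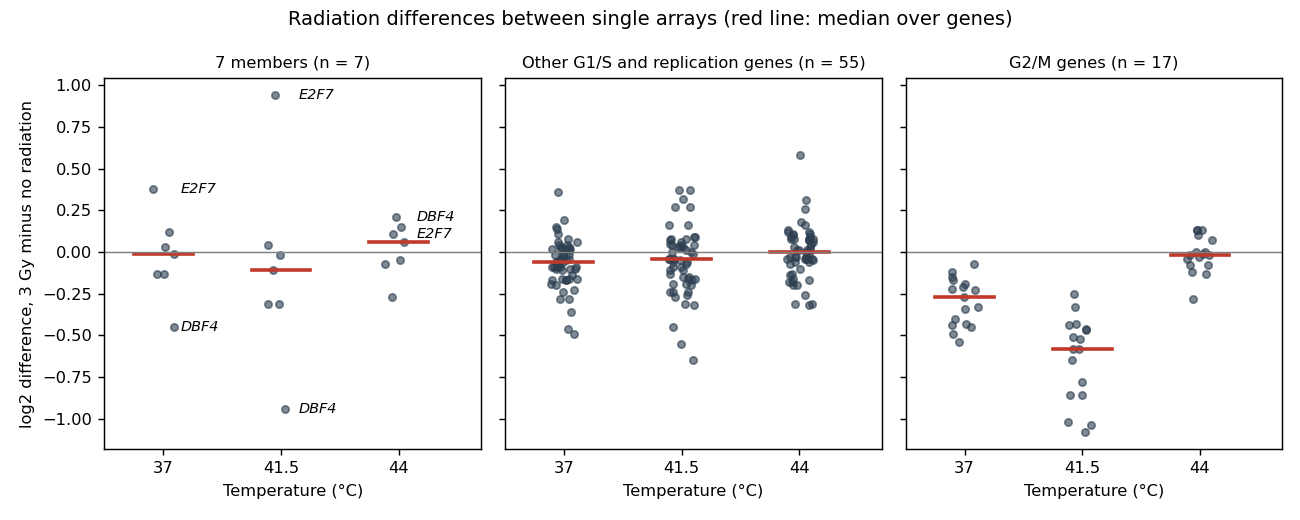
Log2 difference between the array with 3 Gy and the array without radiation (vertical axis) at each temperature, for the 7 genes, the 55 other G1/S and replication genes and 17 G2/M genes; each point is 1 gene and red lines are medians. E2F7 is the highest and DBF4 the lowest of the 7 at 37 and 41.5 °C, and at 44 °C both lie within 0.21 of 0.

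A departure from additivity is here the log2 radiation difference at 41.5 or 44 °C minus the one at 37 °C. For DBF4 it was -0.49 at 41.5 °C and 0.65 at 44 °C, and for E2F7 0.56 and -0.27. FEN1 had -0.01 and -0.27, CCNE1 -0.19 and 0.08, CDC25A -0.18 and 0.06, MCM10 -0.15 and 0.03 and CDC6 -0.07 and 0.03. Departures of at least 0.322 were thus seen in 2 of the 7 at 41.5 °C and in 1 of 7 at 44 °C, where 26.1% and 26.0% of all genes had one. They come from single arrays and have no replicate check.

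Likeness was measured as the mean absolute distance between profiles centred over the 6 arrays, among 7435 genes at or above the median level. The genes nearest to the mean profile of the 7 were RCC1L, KLHDC4, HOXC8, FAM120AOS, NOL10 and ZC3H7A, at distances of 0.019 to 0.021. As the 7 differ among themselves, the nearest genes were also looked up for each member, a step added after the values were seen. The 6 nearest to MCM10 were TRMT5 (0.01), ZBTB9 (0.022), ATR (0.043), EXO1 (0.045), FAM120C (0.048) and YJU2B (0.05). For DBF4 they were DEPDC1 (0.054), ARHGAP11A (0.056), ARHGAP11B (0.065), CKAP2 (0.07), CKAP2L (0.072) and TRIM59 (0.075). For E2F7 they were TRAF4 (0.075), SULF2 (0.094), RNF19B (0.096), ISCU (0.101), TIGAR (0.104) and PLCL2 (0.106). For CDC6 they were ADRA2C, UGCG, NUDT9, RPL9, GRB10 and WDR13 (0.041 to 0.058). Those of CDC25A were NPTX1, CA8, RIOK1, ETS1, ZNF24 and ODC1 (0.03 to 0.063). CCNE1 had EIF5, TRAPPC4, SUMO4, KBTBD2, SIAH2 and ASMT (0.039 to 0.054). FEN1 had ELOA-AS1, STAG3L3, ZNF526, MPPE1, BICRA and UNC50 (0.029 to 0.051).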

How the data were processed

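RNA of 6 A549 samples, 1 per group, was measured on Affymetrix arrays. The deposited values are log2 levels that the authors made by RMA in Expression Console 1.1, per the submitters' processing notes. The build behind the features is not given in these sources. The platform annotation names 16098 of 53617 features by 1 gene symbol and 37519 by none. Where a gene had several features (779 genes), the one with the highest mean was used, leaving 14884 genes.

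An additive model of temperature (3 levels) and radiation was fitted by limma 3.58.1 (R 4.3.3) to all 6 arrays, using an intensity trend, 2 residual degrees of freedom (prior 8.06), two-sided tests and Benjamini-Hochberg adjustment over all genes. The median SE was 0.138 between temperatures and 0.113 for radiation, and the number of arrays limits this precision. On data simulated for 44 °C against 37 °C with 14884 genes, the fit recovered 50 of 50 genes changed by 1 on the log2 scale. It recovered 36 of 50 changed by 0.5. Each simulated gene took the median residual SD of genes of similar mean level. No change of the radiation effect with temperature was simulated, so recovery in the real data may be lower. Members and lists were chosen with earlier results of these data known. The text names the 7 genes, every called gene of the 5 lists (these had at most 6 each), fixed pathway and check genes, and the 6 genes nearest to the mean profile. CDKN1A and MDM2, also on that rule, are unnamed in the annotation and were not analysed here. Promoter sequences are from RefSeq (GRCh38.p14), matched by gene ID for all 7 genes. Alternatives covered scaling, moderation, feature choice, a filter on dim genes, all features in 1 fit, and each array left out.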

Additional observations from a re-analysis of the deposited data

Results flagged for a closer look

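Opposite differences of the same contrast, each of at least 0.2 on the log2 scale, stood out for DBF4 and E2F7. With 1 array per group, none of these contrasts between differences was tested. The 3 Gy array of DBF4 differed from the array without radiation by 0.21 at 44 °C, whereas the difference was -0.45 at 37 °C and -0.94 at 41.5 °C. DBF4 at 44 °C against 37 °C differed by 0.37 among irradiated arrays and by -0.29 among arrays without radiation. At 41.5 °C against 37 °C these values were -0.23 and 0.26, and at 44 °C against 41.5 °C 0.60 and -0.55. E2F7 at 41.5 °C against 37 °C differed by 0.32 with radiation and by -0.23 without.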

How the results depend on the processing

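The 55 pathway genes had 5 calls at 44 °C against 37 °C, 3 at 41.5 °C against 37 °C and 8 at 44 °C against 41.5 °C. Without the intensity trend the counts were 0 (9 at an unadjusted p under 0.05), 0 (7) and 1, and in a fit of all features together 1, 0 (7 at an unadjusted p under 0.05) and 2. Leaving out 1 array gave 0 to 8 calls at 44 °C against 37 °C, 0 to 3 at 41.5 °C against 37 °C and 4 to 6 between 44 °C and 41.5 °C. A temperature left with 1 array was then assumed to vary like the others. For radiation the count was 0 over all arrays (4 at an unadjusted p under 0.05), 0 to 1 with 1 array left out and 1 in the 4 arrays at 37 and 41.5 °C. In the fit with a further quantile normalization and in that with median centring, each of these counts stayed within 1.5 times its main value, and so it did with the mean of all features of a gene and with dim genes left out. Median centring gave 11 calls between 44 °C and 41.5 °C, all lower. With dim genes left out, 53 of the 55 genes remained, and calls went both ways in each comparison. At 44 °C against 37 °C 6 were then lower and 1 higher, and at 41.5 °C against 37 °C 3 were higher and 1 lower. Between 44 °C and 41.5 °C 9 were lower and 1 higher. Over all genes, 325 rose and 164 fell at 41.5 °C against 37 °C, against 273 and 229 after a further quantile normalization, and 729 rose and 1076 fell at 44 °C against 41.5 °C, against 580 and 1432 after median centring. Without the intensity trend, calls over all genes numbered 405, 9 and 791 in the order of comparisons given above. In the fit of all features together they numbered 379, 14 and 636. Of 343 re-estimated differences of the 7 genes, 307 moved by less than the gene's residual SD. Among the 343, 18 changed sign, in CCNE1, DBF4, E2F7, FEN1 and MCM10, each from a difference that was not called. Many could not move, because dropping the intensity trend, leaving out dim genes or fitting all features together changes only the SE. The mean of all features is the same value for these genes, which have 1 feature each. Leaving out an array at a temperature outside the comparison also leaves a temperature difference as it was. The 307 are therefore no measure of stability. No paired analysis was possible because the labels give no replicate numbers and each group has 1 array.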
